A study of Mus musculus with 4 samples.

Results

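The genes described here are 10 non-muscle actin and adhesion genes known as targets of serum response factor (SRF): Actb, Actg1, Flna, Actn1, Csrp1, Cnn2, Tagln2, Tln1, Vcl and Zyx. They were chosen by gene symbol, and each matched 1 of the 22667 genes in the expression table. RNA was measured in N2a cells, a mouse neuroblastoma line, that had been transfected for 48 h with a control siRNA (siControl) or an siRNA that targets Arglu1 (siArglu1), the gene of a transcriptional coactivator and splicing factor. Cells of each kind then received vehicle (Veh, EtOH) or 100 nM of the glucocorticoid dexamethasone (Dex) for 4 h, which gives 4 groups. RNA of 3 cultures was pooled per group and sequenced as 1 polyA-selected library, so there are no replicates, and intervals given below cover counting error only. In such bulk RNA, a change in RNA per cell and a change in the share of cells cannot be told apart.

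SRF is a transcription factor that binds CArG boxes, short A/T-rich elements near the start of its target genes. Its cofactors of the MRTF family (Mkl1 and Mkl2 in mouse) are held back by monomeric actin and enter the nucleus when actin polymerises, so that the pathway reads out the state of the cytoskeleton and drives the genes that build it, actins included. Focal adhesions are the sites where integrins couple actin filaments to the extracellular matrix: talin and vinculin make the link, zyxin and cysteine-rich LIM proteins sit along the filaments, and filamin and alpha-actinin cross-link them.

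A CArG box, searched as its 10-base consensus (which reads the same on both strands), was present in the RefSeq promoters of 3 members. These are shown because the box is the element that SRF binds. The windows run 5′ to 3′ on the strand of the gene, upstream of its start, with the box in capitals.
Cnn2: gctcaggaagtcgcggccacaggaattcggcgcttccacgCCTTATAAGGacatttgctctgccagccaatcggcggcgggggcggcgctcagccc
Actg1: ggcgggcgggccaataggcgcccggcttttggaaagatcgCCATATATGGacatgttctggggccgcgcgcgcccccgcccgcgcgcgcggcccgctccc
Vcl: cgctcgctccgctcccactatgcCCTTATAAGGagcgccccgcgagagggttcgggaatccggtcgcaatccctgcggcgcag
In build GRCm38.p6 the Cnn2 window is chr10:79988504-79988599 (plus strand), the Actg1 window is chr11:120348526-120348625 (minus strand) and the Vcl window is chr14:20929148-20929230 (plus strand). The boxes begin 56, 90 and 227 bases before the gene starts. Cnn2 and Vcl hold the same 10 letters, although their RNA behaved differently in the comparisons below. Of all 32851 promoters of this length (250 bases before to 50 after the start), 535 (1.63%) hold the motif. The windows of Csrp1, Tagln2, Tln1, Zyx, Actn1 and Flna hold no match, which says only that these letters are not in them. The promoter of Actb was not searched here.

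Between 66074574 and 86541444 reads fell on genes in each library. All 10 members were among the 12497 genes with at least 75 reads over the 4 libraries. Arglu1 itself had 92.6 and 99.9 cRPKM in the siControl libraries and 23.8 and 22.6 cRPKM in the siArglu1 libraries (Veh, then Dex), where cRPKM is the authors' RPKM, corrected for the mappable length of the transcript. Of 15 markers of sympathetic neuroblasts, the lineage of such tumours, 14 reached 1 cRPKM, with a summed level of 2301 to 2486 cRPKM. Markers of smooth muscle and fibroblasts summed to 23.5 and 21.4 cRPKM in the siControl libraries and 21.5 and 19.2 in the siArglu1 libraries (Veh, Dex), with 8 of 12 below 1 cRPKM everywhere and none at 0 in every library; Myh11, smooth muscle myosin, was higher in both knockdown pairs but reached no more than 0.25 cRPKM. Of the 8 genes of that list compared, 4 had a log2 ratio for knockdown above 0 in vehicle and 6 in Dex. S100a4 went from 12.9 to 9.47 cRPKM with knockdown in vehicle and from 11.6 to 6.36 in Dex. The list leaves out Acta2, Actg2, Cnn1 and Myl9, also abundant in smooth muscle. These were counted with other lists and were higher in both knockdown pairs, with values given below. Tagln and Mylk were counted with other lists too. Tagln gave log2 ratios of 0.71 in vehicle and 0.43 in Dex. Mylk, named after its values were seen, had at most 4 reads in a library and was not compared. The part of smooth muscle-like cells in the members' ratios was not tested. Glial markers summed to 1.52 to 2.18 cRPKM, with 6 of 7 below 1 cRPKM.

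In the siControl Veh library the 10 genes spanned from 10.3 cRPKM (Tln1) to 2165 cRPKM (Actg1). Their order by cRPKM was Actg1, Actb, Tagln2, Actn1, Zyx, Flna, Csrp1, Vcl, Cnn2 and Tln1, and of the neighbours in it only Vcl (23.8) and Cnn2 (23.5) overlapped within counting error. In the siArglu1 Veh library no neighbours overlapped, and the order below Tagln2 had become Csrp1, Flna, Cnn2, Zyx, Actn1, Vcl and Tln1. The 10 genes together took 0.713% and 0.709% of the reads in the siControl libraries and 1.22% of the reads in each siArglu1 library.

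**Figure D1:**
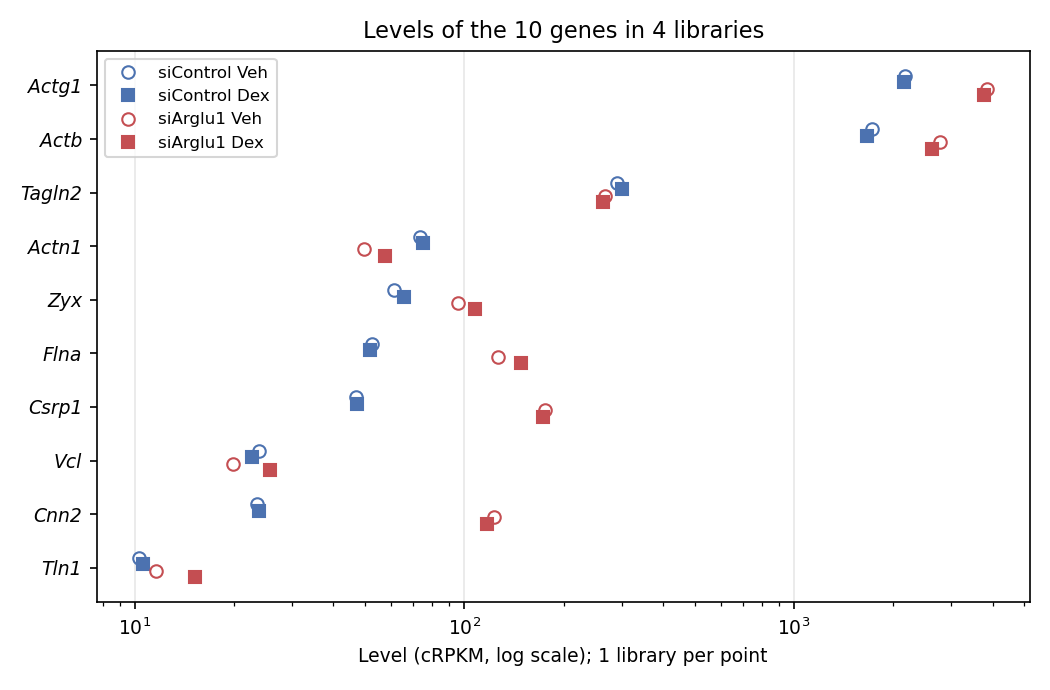
Level of each of the 10 genes in the 4 libraries, in cRPKM on a log axis, 1 point per library. Csrp1, Flna and Cnn2 lie further right in both siArglu1 libraries, Actn1 lies further left, and siControl Veh and siControl Dex nearly coincide.

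Knockdown of Arglu1 was compared in vehicle (siArglu1 Veh over siControl Veh) and, with separate libraries, in Dex (siArglu1 Dex over siControl Dex), to ask which of these genes depend on Arglu1. In vehicle, 4 of the 10 genes (Cnn2, Csrp1, Flna and Actg1) were higher by a log2 ratio of at least 0.81, a size that 7% of the 12497 genes reached in that direction. In Dex, 3 of the 10 (Cnn2, Csrp1 and Flna) were higher by that much, against 6.19% of all genes. No member was lower by 0.81 in either pair, against 8.77% of genes in vehicle and 5.93% in Dex. At a size of 0.5, 6 members were higher in vehicle (16.6% of genes) and 1 was lower (18.7%), and 7 were higher in Dex (14.6%) and none lower (14.2%). At a size of 1.5, 2 were higher in vehicle (1.28%) and 3 in Dex (1.25%). A fit of all libraries with knockdown and Dex as additive terms (edgeR, 1 residual degree of freedom), in which Veh and Dex libraries stand in for replicates, called 7 members higher with knockdown (30.8% of genes) and 1 lower (30.9%). The median log2 ratio of the members was 0.70 in vehicle and 0.67 in Dex, beside medians over all genes of 0.0038 and 0.0031.

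Actb and Actg1 encode the cytoplasmic beta- and gamma-actins, the building blocks of the non-muscle filament. Actg1 (ENSMUSG00000062825, chromosome 11) had 2165 and 2163 cRPKM in the siControl libraries (Veh, then Dex, here and below) and 3858 and 3782 in the siArglu1 libraries. Actb (ENSMUSG00000029580, chromosome 5) had 1719 and 1661 cRPKM with siControl and 2770 and 2614 with siArglu1. Both actins were thus higher in both siArglu1 libraries than in either siControl library. For Actg1 the log2 ratio with knockdown was 0.87 in vehicle (0.86 to 0.87, 95%) and 0.80 in Dex (0.79 to 0.80). For Actb it was 0.72 (0.71 to 0.73) and 0.65 (0.64 to 0.66). Actg1 therefore stood just past the size of 0.81 in vehicle and just short of it in Dex. The pair took 0.554% and 0.548% of reads in the siControl libraries and 0.957% and 0.928% in the siArglu1 libraries.

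Reads of these genes cannot all be assigned to 1 locus. The coding sequences of Actb and Actg1 are 88.7% identical, and their proteins of 375 residues differ at 4. Of the 50-base words in the longest coding transcript of Actg1 (GENCODE M21), 56.7% also occur in transcripts of other genes, mostly the processed pseudogene Gm12715, and for Actb the share is 14.2%. The mappable length behind the cRPKM was 1048 nt of a 1920-nt transcript for Actb and 1729 nt of a 1952-nt transcript for Actg1. Such gaps also occurred without shared words, as in Vcl (3136 nt of a 5267-nt transcript) and Zyx (2386 nt of 3188 nt). Since a shift of reads between Actb and Actg1 would leave their sum as it is, the summed reads of the pair were compared as well. The log2 ratio of the sum for knockdown was 0.82 in vehicle and 0.75 in Dex. The sum does not account for reads shared with other genes, such as Gm12715. The other 8 members share at most 0.781% of such words with any other gene.

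Flna (ENSMUSG00000031328, chromosome X) encodes filamin A, which cross-links filaments into networks and binds integrins. Its level was 52.5 and 51.6 cRPKM with siControl and 126 and 149 with siArglu1. With knockdown it stood at 246% (95% interval 243 to 249%) of the siControl level in vehicle and at 286% (283 to 290.0%) in Dex, log2 ratios of 1.30 and 1.52. Actn1 (ENSMUSG00000015143, chromosome 12), which encodes alpha-actinin 1, a cross-linker of stress fibres and adhesions, went the other way. It had 73.5 and 75.1 cRPKM with siControl, and 49.6 and 57.4 with siArglu1. Its log2 ratios of -0.53 (-0.57 to -0.50) and -0.40 (-0.43 to -0.37) were the lowest of the 10 in both pairs and did not reach the size rule. The 2 cross-linkers thus ended in opposite order, with Actn1 above Flna in both siControl libraries and below it in both siArglu1 libraries.

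Cnn2, Csrp1 and Tagln2 encode small actin-binding proteins of the kind that is abundant in smooth muscle. Cnn2 (ENSMUSG00000004665, chromosome 10), calponin 2, binds and stabilises filaments. It had 23.5 and 23.8 cRPKM with siControl and 123 and 117 with siArglu1. This was the widest gap of the 10 genes, 5.35-fold in vehicle and 4.88-fold in Dex, and it ranked 29th of the 12497 genes in both pairs. Csrp1 (ENSMUSG00000026421, chromosome 1), a LIM protein that binds alpha-actinin and zyxin, had 46.8 and 47.3 cRPKM with siControl and 175 and 173 with siArglu1. Its log2 ratios were 1.94 (95% interval 1.90 to 1.98) in vehicle and 1.86 (1.82 to 1.90) in Dex, and those of Cnn2 were 2.42 (2.37 to 2.47) and 2.29 (2.24 to 2.34). Tagln2 (ENSMUSG00000026547, chromosome 1), transgelin 2, which bundles filaments and is of the same calponin-homology kind as Cnn2, showed none of this. At 290.1 and 299.6 cRPKM with siControl and 268 and 263 with siArglu1, it was the most abundant of the members after the actins and slightly lower with knockdown, by log2 ratios of -0.08 (-0.11 to -0.06) and -0.20 (-0.22 to -0.18).

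Tln1, Vcl and Zyx encode the core of the adhesion plaque. Tln1 (ENSMUSG00000028465, chromosome 4), talin 1, activates integrins and binds them to actin, and was the least abundant member, at 10.3 and 10.6 cRPKM with siControl and 11.6 and 15.3 with siArglu1. Only its siArglu1 Dex library stood well above the rest. Vcl (ENSMUSG00000021823, chromosome 14), vinculin, which reinforces the talin-actin link under tension, had 23.8 and 22.7 cRPKM with siControl and 19.9 and 25.7 with siArglu1. Its ratio for knockdown was negative in vehicle (log2 of -0.23, 95% interval -0.29 to -0.17) and positive in Dex (0.17, 0.12 to 0.23), the only member whose 2 ratios differed in sign. Zyx (ENSMUSG00000029860, chromosome 6), zyxin, a LIM protein that recruits actin assembly factors to strained filaments, had 61.3 and 65.6 cRPKM with siControl and 95.6 and 107 with siArglu1. Its log2 ratios of 0.68 (0.64 to 0.71) and 0.70 (0.67 to 0.74) were nearly equal in the 2 pairs and short of the size rule.

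**Figure D2:**
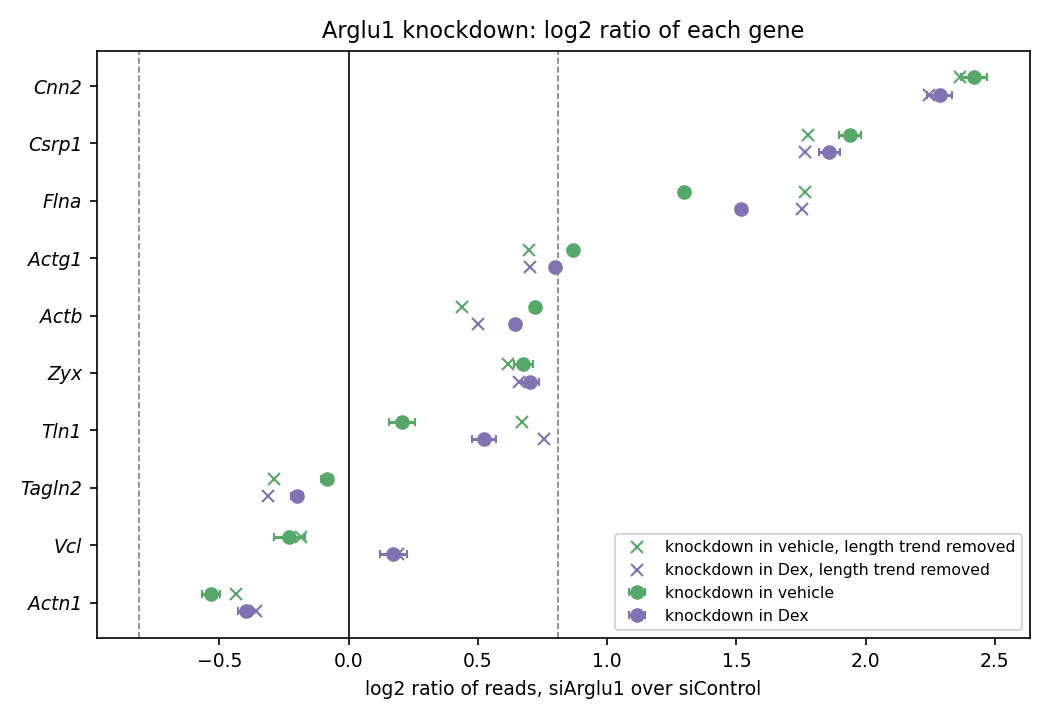
Log2 ratio of reads for Arglu1 knockdown of each gene, in vehicle and in Dex. Filled points with bars are the ratios with their 95% counting intervals, crosses are the ratios after removal of the trend on transcript length, and dashed lines mark 0.81. Cnn2, Csrp1 and Flna lie beyond the dashed line by either measure, while Actn1 and Tagln2 lie left of 0.

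A property of the libraries moved with these ratios. Across all genes, the log2 ratio for knockdown declined with mappable transcript length (Spearman's rho across 12484 genes, which are not independent, of -0.40 in vehicle and -0.23 in Dex). At the length of Flna (8398 nt) the trend stood at -0.47 in vehicle, and at that of Actb (1048 nt) at 0.28. With the trend removed, the ratio of Flna was 1.77 in vehicle and 1.75 in Dex, so that its 2 values came closer, and that of Tln1 (8300 nt) was 0.67 and 0.76. The ratios of Actb became 0.44 and 0.50, and that of Actg1 in vehicle became 0.70, below the size of 0.81. Cnn2 (2.36 and 2.25) and Csrp1 (1.78 and 1.77) were little moved. The part of this trend in the members' ratios was not tested.

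Reads over splice junctions, which the tables give for alternative 3′ and 5′ splice site events, showed how the difference was spread along each gene. In Flna, 21 events had at least 20 junction reads in every library. At the 5′-most event Flna had 257 junction reads with siControl and 327 with siArglu1 in vehicle, and at the 3′-most event, 17.7 kb further on, it had 531 and 1403. The log2 ratio for knockdown in vehicle thus ran from 0.37 at the 5′ end to 1.42 at the 3′ end, and in Dex from 0.91 to 1.70. It was positive at 21 of 21 events in both pairs. The median of the Flna events was 0.57 in vehicle, short of the size rule, and 1.12 in Dex. The whole-gene ratio of Flna in vehicle was 1.30, and 1.77 with the trend on length removed. In Tln1, with 12 events, the ratio in vehicle was -0.44 at the 5′-most event and 0.44 at the 3′-most. The 5′-most ratio rests on 33 junction reads with siControl and 24 with siArglu1. Over all its events the ratio in vehicle lay between -0.95 and 0.76 and did not climb evenly. In Dex the ratio was 0.09 at the 5′-most event and 0.98 at the 3′-most. Both genes follow the libraries as a whole: among 235 genes with at least 10 such events, the median Spearman's rho of the log2 ratio with distance from the 5′ end was 0.85 in vehicle and 0.73 in Dex, and it was positive in 99.6% and 95.7% of genes. The values for Flna were 0.87 and 0.79 and those for Tln1 0.78 and 0.73, and all points of a comparison share 2 libraries. Relative to siControl, reads of the siArglu1 libraries therefore sat nearer to the 3′ end.

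For the shorter members fewer events were counted, and the knockdown ratio at them was closer to the whole-gene ratio in some than in others. Cnn2 had 2 events, with log2 ratios in vehicle of 2.08 and 1.92. Csrp1 had 4, of which 2 share nearly all their reads, with ratios from 1.62 to 1.90. The junction ratios of both genes lie below the whole-gene ratios of 2.42 and 1.94. Actb had 1 event, the junction of its first exon, where the ratio was 0.08 in vehicle and 0.40 in Dex beside 0.72 and 0.65 over the whole gene. In Zyx the 5′ event gave 0.15 and the 3′ event 0.89 in vehicle. No event of Actg1 had 20 junction reads in every library. Actn1 had 3 events, with ratios of -1.04 to -0.65 in vehicle, all lower with knockdown.

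**Figure D3:**
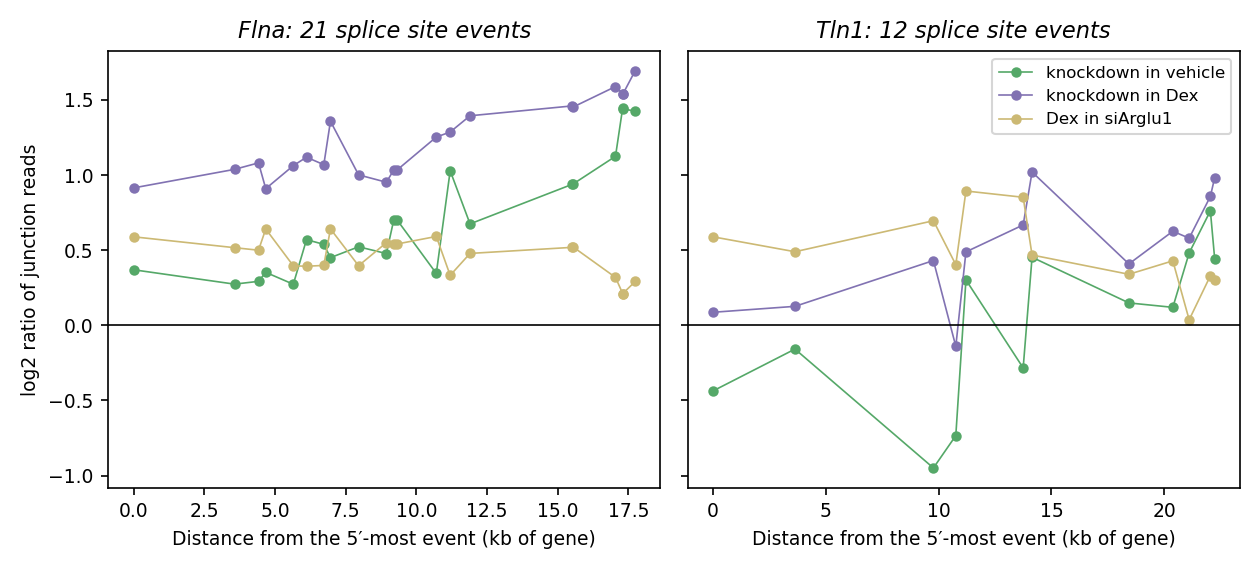
Log2 ratio of junction reads at each splice site event of Flna (21 events) and Tln1 (12 events) against its distance in kb from the 5′-most event, for knockdown in vehicle, knockdown in Dex and Dex in siArglu1. In both genes the knockdown ratios tend to climb toward the 3′ end, unevenly in Tln1, and in Flna they are above 0 at every event.

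Dex was then compared with vehicle within each siRNA, the study's test for glucocorticoid response and its dependence on Arglu1. None of the 10 genes differed by a log2 ratio of 1 in siControl cells, where 0.464% of genes did, or in siArglu1 cells, where 0.392% did. The additive edgeR fit called none of them for Dex after Benjamini-Hochberg adjustment (1.04% of genes were called), and 1, Tln1, had an unadjusted p under 0.05. In siControl cells the ratios lay between -0.06 (Vcl) and 0.11 (Zyx), with a median of 0.03. In siArglu1 cells they spread from -0.12 (Actb) to 0.36 (Tln1), with a median of 0.04. Tln1, Vcl (0.34), Flna (0.20), Actn1 (0.18) and Zyx (0.13) were higher with Dex there, and Actb, Cnn2 (-0.10), Actg1 (-0.06), Tagln2 (-0.06) and Csrp1 (-0.05) were lower.

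This split went with transcript length at both ends of its range. The members with at least 3136 nt of mappable sequence (Vcl, Actn1, Tln1 and Flna) were all higher, and those of 1779 nt or less (Csrp1, Actg1, Tagln2 and Actb) were all lower. Between them it did not, since Cnn2 (2411 nt) was lower and Zyx, at 2386 nt, was higher. Over all genes the log2 ratio for Dex in siArglu1 cells increased with length (rho of 0.54 across 12484 genes), whereas in siControl cells rho was -0.16. With the trend removed, Flna stood at 0.0052 and Tln1 at 0.17, and Actb, Actg1, Csrp1 and Tagln2 turned from below to above 0 (0.02 to 0.04). Vcl kept a ratio of 0.32. The junction reads show the same at the level of position: Dex in siArglu1 cells gave a log2 ratio of 0.59 at the 5′-most event of Flna and 0.29 at the 3′-most, and the median rho with distance over 235 genes was -0.62. Whether Dex or the state of 1 library sets these ratios cannot be told apart, since each group is 1 library.

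**Figure D4:**
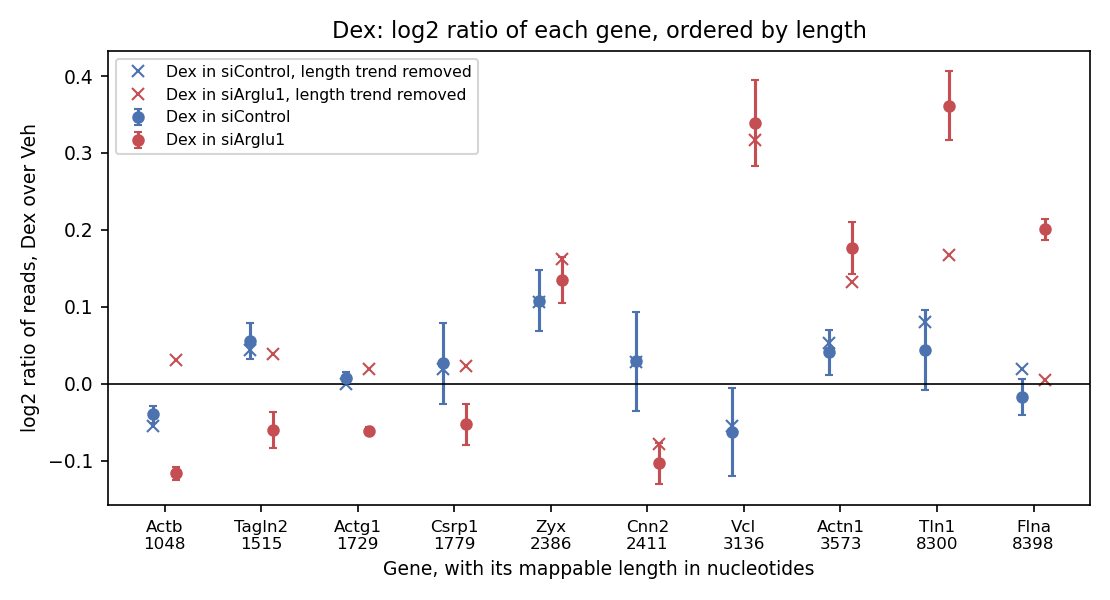
Log2 ratio of reads for Dex over vehicle in siControl and siArglu1 cells, for the 10 genes ordered by mappable length. Points with bars are the ratios with 95% counting intervals and crosses the ratios without the trend on length. In siArglu1 cells the longest genes lie above 0 and the shortest below, and the crosses lie within 0.04 of 0 for Flna, Actb, Actg1, Csrp1 and Tagln2 and above it for Vcl, Tln1, Zyx and Actn1.

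Splicing of the members was followed by PSI (percent spliced in), the share of a gene's transcripts in which a given exon or splice site is used. The tables list 100 events in the 10 genes, and 89 met the coverage rule (PSI given for all 4 libraries, with a coverage score no worse than LOW for 3 of them or more). None differed by 15 PSI in any comparison, while 1.96% of all 57183 events did for knockdown in vehicle, 1.52% for knockdown in Dex, 0.717% for Dex in siControl and 0.948% for Dex in siArglu1. The largest member difference was 4.28 PSI for knockdown in vehicle and 6.60 PSI for knockdown in Dex, both in Tln1. Of the 89 events, 82 stayed at 95 PSI or more, or at 5 PSI or less, in every library, so most of these exons and sites were used nearly always or hardly ever.

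The few events with intermediate PSI were steady across the libraries. In Flna a 24-nt exon (mm9 chrX:71478306-71478329) had 93.98 and 91.4 PSI with siControl and 89.9 and 88.9 with siArglu1, the highest value in siControl Veh. This was 4.09 PSI lower with knockdown in vehicle and 2.49 PSI lower in Dex. Actn1 has a pair of alternative exons in its calcium-binding region, of 81 and 66 nt. In the same order of libraries, the 81-nt exon was included at 94.2, 95.2, 94.7 and 96.1 PSI, the 66-nt exon (mm9 chr12:81271170-81271235) at 9.52, 8.04, 7.47 and 7.0 PSI. The 2 exons thus kept opposite use in all 4 libraries. These 3 exons are printed because they are the alternative cassettes of the cross-linkers; each is the only internal exon of its length in the gene in GENCODE M21 (GRCm38, minus strand, 5′ to 3′).
Flna 24-nt exon, chrX:74232967-74232990: tgtcaatcggaggtcacgggctag
Actn1 81-nt exon, chr12:80170686-80170766: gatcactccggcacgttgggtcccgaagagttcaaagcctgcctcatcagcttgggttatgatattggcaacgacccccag
Actn1 66-nt exon, chr12:80170183-80170248: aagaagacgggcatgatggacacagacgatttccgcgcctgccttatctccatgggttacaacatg
In Vcl the 204-nt exon that makes metavinculin, the muscle form, stayed between 0.27 and 0.49 PSI. Zyx had a 93-nt exon at 71.8 to 73.0 PSI and a 203-nt exon upstream of it at 88.3, 93.6, 86.3 and 88.2 PSI, higher in siControl Dex than in the others. In Tln1 an alternative 3′ splice site 4 nt apart from its partner was used at 93.5, 97.8, 96.8 and 91.2 PSI. In Csrp1, Cnn2, Tagln2, Vcl and Actb, the event of widest PSI range among those scored OK or better in every library spanned 0.02 to 2.86 PSI. For Actg1 no event was scored OK or better throughout.

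Each member belongs to a family of related genes, and 20 of 24 such paralogs reached 1 cRPKM in a library. Of the 22 paralogs compared, 8 were higher by 0.81 in both knockdown pairs (Cnn1, Actg2, Acta2, Actc1, Acta1, Lpp, Csrp2 and Actn2) and none was lower in both, while 4.83% of all genes were higher and 5.07% lower in both. The muscle actins gave ratios far above those of Actb and Actg1. Acta2, smooth muscle alpha-actin, had 3.85 and 3.55 cRPKM with siControl and 77.4 and 69.9 with siArglu1, log2 ratios of 4.36 (95% interval 4.22 to 4.50) and 4.29 (4.15 to 4.43). Actg2, smooth muscle gamma-actin, had 1.13, 0.94, 24.4 and 22.9 cRPKM. Acta1 (skeletal) and Actc1 (cardiac) went from 0.42 and 0.12 cRPKM in siControl Veh to 4.14 and 1.69 in siArglu1 Veh. Even so, Acta2 at its highest was 2.79% of the level of Actb in the same library.

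Within families the sizes were unequal. Among calponins, Cnn1, the smooth muscle form, had 6 and 3 reads in siControl Veh and siControl Dex and 193 and 194 in the siArglu1 libraries (log2 ratios of 4.83, 3.88 to 6.49, and 5.33, 4.16 to 8.02). Cnn3 was the most abundant calponin, at 112 cRPKM in siControl Veh and 140 in siArglu1 Veh. Csrp2 went from 45.3 to 106 cRPKM with knockdown in vehicle, beside 46.8 to 175 for Csrp1. Flnc, the filamin of striated muscle, gave a log2 ratio in vehicle of -0.47, beside 1.30 for Flna. Actn4 (-0.41) was lower in vehicle as Actn1 was, and Actn2, at 2.02 cRPKM in siControl Veh, was higher (1.12). Of the zyxin relatives, Lpp was higher (1.84 in vehicle and 2.03 in Dex), and Trip6 (0.46), Wtip (0.46) and Limd1 (-0.0024) were short of the size rule in vehicle. Tagln, Tagln3, Tln2, Ctnna1 and Ctnna2 lay between -0.61 and 0.71 in vehicle.

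**Figure D5:**
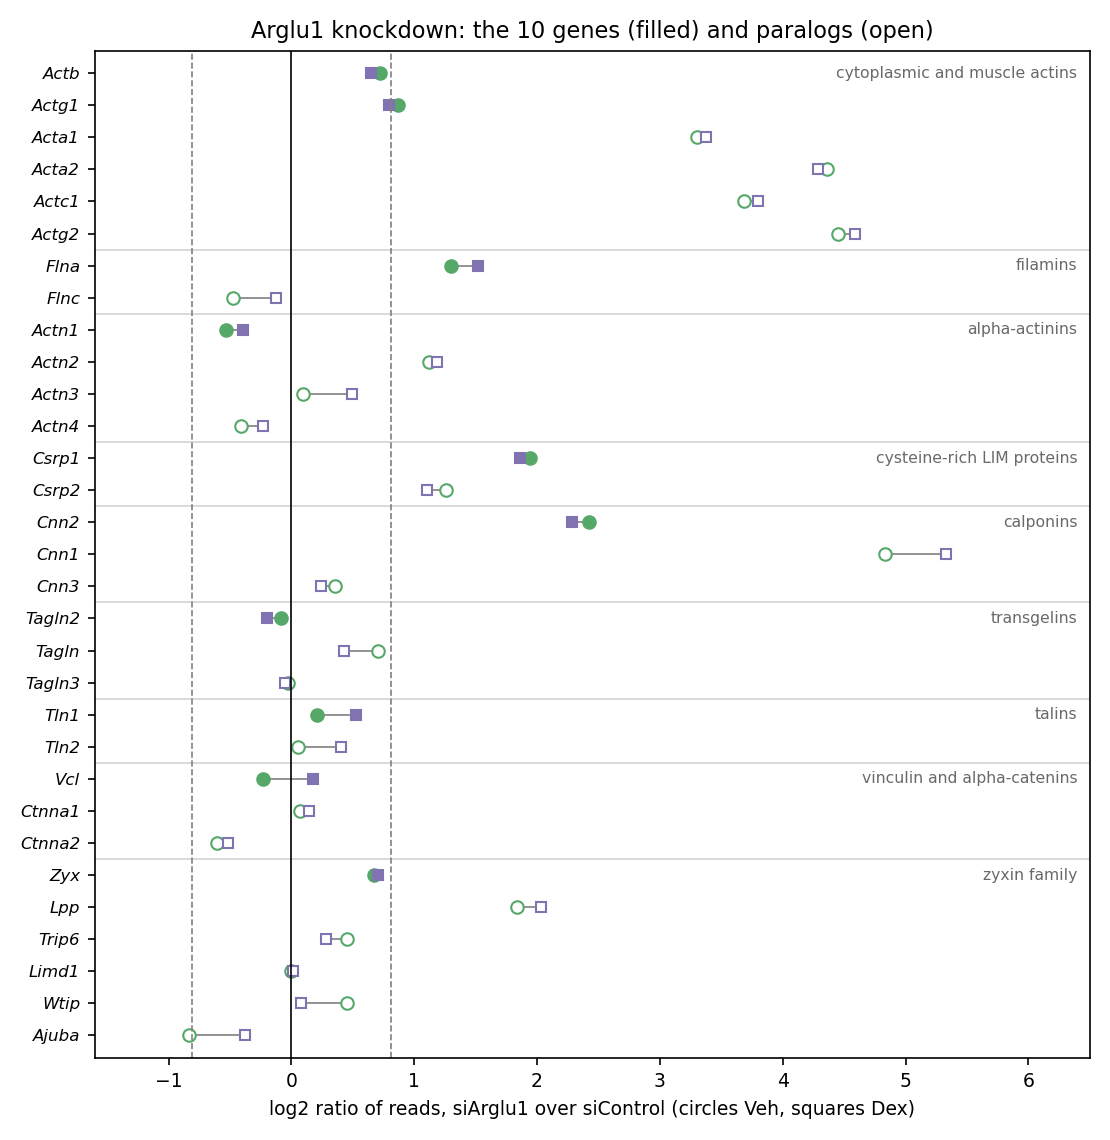
Log2 ratio for Arglu1 knockdown of the 10 genes (filled) and of paralogs compared (open, with 1 of them left out), by family, with circles for vehicle and squares for Dex and dashed lines at 0.81 in either direction. The muscle actins and Cnn1 lie beyond 3 in both pairs, while talins, transgelins and alpha-catenins lie within the dashed lines.

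The wider pathway was read from lists of genes that work with the members. The ratios of these lists, and of the paralogs above, are given without removal of the trend on length. The lists hold genes of unlike mappable length, such as Myl6 (266 nt) and Ilk (594 nt) beside Mkl2 (5772 nt) and Col4a2 (6401 nt). The part of that trend in the values of these genes was not tested. Of 54 genes for actin assembly, myosin and tropomyosin, 49 were compared, 11 were higher by 0.81 in both knockdown pairs (4.83% of all genes) and 1 was lower in both (5.07%), with median log2 ratios of 0.33 in vehicle and 0.22 in Dex. Among the higher ones, Myl9, a regulatory light chain of smooth muscle and non-muscle myosin, went from 3.84 to 94.3 cRPKM in vehicle and from 4.28 to 87.8 in Dex. Myl6, the essential light chain, went from 596 to 1919 cRPKM in vehicle, Dstn (destrin, which severs filaments) from 146 to 387, Tpm2 (beta-tropomyosin) from 23.0 to 65.7 and Arpc4 (a subunit of the Arp2/3 nucleator) from 42.9 to 111. The lower gene, named after its values were seen, was Cfl1, cofilin 1, the major non-muscle relative of destrin, at 720 and 732 cRPKM with siControl and 344 and 292 with siArglu1. Tmsb10, a thymosin that binds monomeric actin and the most abundant gene of the list beside Myl6, gave 0.25 (vehicle) and -0.01 (Dex) on the log2 scale.

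Integrins and other adhesion proteins made up a list of 44 genes. Of these, 37 were compared, 5 were higher in both knockdown pairs (4.83% of all genes) and 1 was lower (5.07%), and the medians were -0.15 in vehicle and -0.04 in Dex. Tgfb1i1 (Hic-5), a LIM adaptor of focal adhesions, went from 5.38 to 33.0 cRPKM in vehicle, Pdlim7 from 50.5 to 106, Parva (alpha-parvin) from 23.7 to 48.0 and Itga5, the fibronectin receptor chain, from 0.23 to 0.51. Itgb1, the shared integrin beta chain, was at 247 and 231 cRPKM in siControl Veh and siArglu1 Veh, a log2 ratio of -0.06, and Ilk, integrin-linked kinase, at 83.7 and 158, a log2 ratio of 0.95. Of 18 matrix genes 10 were compared, and against the same shares of all genes Cyr61 and Thbs1 were higher in both pairs (1.06 to 3.24 and 0.02 to 0.07 cRPKM in vehicle) and Tnc was lower (0.07 to 0.03). The values of Thbs1 and Tnc rest on few reads. Thbs1 had 9 and 20 reads with siControl and 27 and 46 with siArglu1 (Veh, then Dex), and Tnc 32 and 37 beside 14 and 20. Col4a2 and Col4a1, the most abundant of the matrix genes, had log2 ratios of -0.80 and -0.38 in vehicle.

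SRF and its cofactors did not pass the size rule in both pairs. Srf, which is itself an SRF target, had 18.5 and 18.2 cRPKM in the siControl libraries and 30.1 and 32.0 in the siArglu1 libraries, log2 ratios of 0.73 (95% interval 0.68 to 0.78) and 0.805 (0.758 to 0.853). Mkl1, the MRTF cofactor most abundant here, gave -0.22 (vehicle) and 0.06 (Dex) on that scale. Of the 6 genes compared, 2 were lower by 0.81 in vehicle (8.77% of all genes) and none in Dex (5.93%): these were Mkl2, the other MRTF cofactor (-1.39 and -0.74), and Elk4, an Ets-type SRF cofactor (-0.85 and -0.46), both named after their values were seen.

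The median profile of the 10 members over the 4 libraries was -0.36, -0.33, 0.34 and 0.37 on the centred log2 scale (siControl libraries first, Veh before Dex). Among 10691 other genes of at least 1 cRPKM, the nearest to it by Euclidean distance over the 4 libraries were Zdhhc24 (0.021), Fastk (0.026), Ppox (0.028), Lrfn4 (0.036) and Plekhb2 (0.038). With 4 libraries this is a description of the libraries only.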

How the data were processed

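Per the file headers, the authors deposited read counts per gene without normalization, cRPKM (an RPKM corrected for the mappable positions of the transcript) and PSI, a percent, for 3 kinds of splicing event. The submitters' notes name Bowtie and mm9, and the study names vast-tools and edgeR; the sources used give neither versions nor the annotation. The authors' 2 ratio columns were not used. Ratios were computed from the deposited counts (66074574 to 86541444 a library) as log2 CPM (edgeR 4.0.16, TMM, prior count 1) for genes with at least 75 reads. With 1 library of pooled RNA per group, calls rest on size (0.81 for knockdown, 1 for Dex, 15 PSI), and 95% intervals are exact (Clopper-Pearson or Poisson, scipy). The length trend was a lowess (span 0.3, 3 iterations). Sequences came from RefSeq (GRCm38.p6) and GENCODE M21. The members and lists were chosen with earlier results of these data known. Beside the members, the text names of each list at most 5 genes past 0.81 in both knockdown pairs and the 2 of highest mean cRPKM. It also names paralogs of at least 1 cRPKM, Arglu1 and the nearest profiles. Per gene it names the event of widest PSI range among those scored OK or better in every library. Other exons and single junctions were chosen after their values were seen. Alternatives were DESeq2 1.42.0 size factors, library totals, cRPKM with 0.1 added, prior count 5, other thresholds and coverage rules, no read minimum, removal of the length trend and an additive edgeR model. Some genes of the lists are counted but not reported here by name. The code was tested on simulated data.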

Additional observations from a re-analysis of the deposited data

Results flagged for a closer look

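In Vcl and Tagln2 the ratio for Dex pointed in opposite directions in siControl and siArglu1 cells, with counting intervals that left out 0 on both sides. In siControl cells the log2 ratio of Vcl was -0.06 (-0.12 to -0.01, 95%), and in siArglu1 cells 0.34 (0.28 to 0.39), a difference of 0.40, and 0.37 with the trend on length removed. The log2 ratio of Tagln2 was 0.06 (0.03 to 0.08) and -0.06 (-0.08 to -0.04), a difference of -0.12, and -0.01 with that trend removed. Neither difference was tested, since each group is 1 library.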

How the results depend on the processing

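The counts of members past the size rule were 4 for knockdown in vehicle and 3 in Dex. At a threshold of 0.5 both became 7, and at 1.5 the count in vehicle became 2 and that in Dex stayed 3. An additive edgeR model (quasi-likelihood test, 1 residual degree of freedom, knockdown and Dex as terms, Benjamini-Hochberg adjusted p under 0.05) called 8 members for knockdown, 7 higher and 1 lower, where it called 30.8% of all genes higher and 30.9% lower. For Dex it called 0 members, with 1 at an unadjusted p under 0.05. With the length trend removed, Actg1 fell below 0.81 in vehicle, at 0.70, which was the only call of a member to change with scaling, length trend or prior count. The median log2 ratio of the members kept its sign in every alternative and ranged from 0.64 to 0.70 for knockdown in vehicle and from 0.67 to 0.68 in Dex. Of 200 values of single members under 5 alternatives, 146 stayed within the counting interval of the reported ratio and 54 did not, 26 of them with the length trend removed. The count of member events past 15 PSI was 0 in all comparisons; without a coverage minimum it was 2 for knockdown in vehicle, 1 for knockdown in Dex, 1 for Dex in siControl and 1 for Dex in siArglu1, all in events of Actb and Actg1 with under 10 junction reads a library. No paired analysis was possible because each group has 1 library, and for the same reason no library could be left out.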

Other observations

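Genes with a CArG box in the RefSeq promoter window were compared, after the members' values were seen, with the other genes that have one. Of 161 such genes among those compared, 22 (13.7%) were higher by 0.81 in both knockdown pairs, beside 4.57% of the genes whose window holds no box. The 161 genes include the members Cnn2, Actg1 and Vcl and the paralogs Acta1, Actc1 and Trip6. Of these, Cnn2, Acta1 and Actc1 are among the 22. The median log2 ratio of the 161 genes was 0.14 in vehicle and 0.12 in Dex. It was 0.0013 and -0.00099 for the genes without a box. These shares are descriptions of 4 libraries, without a test.

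The markers of the sympathetic neuroblast lineage did not move as a block with knockdown. Of 14 compared, 3 were higher in both pairs (Dbh, Gata3 and Phox2a) and 2 were lower in both (Gata2 and Th), while 4.83% of all genes were higher and 5.07% lower. Dbh, the enzyme that makes noradrenaline, went from 3.20 to 12.5 cRPKM in vehicle, Phox2a from 44.9 to 98.8 and Gata2 from 79.4 to 30.6. Th, the rate-limiting enzyme of catecholamine synthesis, had 2.58 and 4.71 cRPKM with siControl and 1.05 and 2.54 with siArglu1 (Veh, then Dex). The abundant neuronal genes Tubb3 and Prph had log2 ratios of 0.35 and -0.66 in vehicle.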
